A study of Mus musculus with 6 samples.

Results

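Vasoactive peptides and their receptors were followed in fibroblasts sorted from mouse ventral skin, as log2 expression values on microarrays. The set was defined by name and held 10 genes of the urotensin, PACAP and VIP, endothelin, angiotensin and natriuretic peptide systems: Uts2, Uts2r, Adcyap1r1, Vipr1, Vipr2, Edn1, Ednra, Ednrb, Agtr1a and Npr3. It was put together because Uts2 and Adcyap1r1 were higher in the transgenic samples, so the difference between the groups is given for all members as a description, without a p-value. Of the 10 genes, 9 had a probe set that the platform annotation gives to a single gene, out of 22180 genes named on the arrays. Each of the 9 had 1 such probe set. The expression of Ednra was not analysed here.

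These peptides act on G protein-coupled receptors or, for natriuretic peptides, mainly on receptors that are themselves guanylyl cyclases. Urotensin II (Uts2), endothelin 1 (Edn1) and angiotensin II signal mainly through Gq and calcium and contract vessels, whereas PACAP and VIP signal mainly through Gs and cyclic AMP and relax them. In skin they are also made or sensed outside vessels: keratinocytes release endothelin 1, which acts on melanocytes through Ednrb, and sensory nerves release PACAP and VIP.

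The 3 WT samples came from ventral skin in telogen, the resting phase of the hair cycle, of wild-type littermates. The 3 KrP samples came from ventral skin, described as nipple-like, of the K14-PTHrP line, whose transgene expresses parathyroid hormone-related protein from the keratin 14 promoter. That promoter is known for its activity in basal keratinocytes. All mice were females on a C57BL/6 background aged 8 to 12 weeks. Cells from dissociated skin were pooled and sorted as viable, CD140-positive cells without CD31, CD45, CD117 or CD49f, and the labels name 3 mice as the source without saying for which samples. No label says that the samples came from separate animals, and the p-values therefore reflect a spread that could be technical. The descriptions of KrP samples 2 and 3 name other keratins than their genotype field, which names K14 and was used. Pthlh, the gene of the transgene's product, had no single-gene probe set. The sorted fibroblasts are also not the cells in which the promoter is known to act. The genotype labels could therefore not be checked here.

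The arrays had medians from 6.34 to 6.43. The correlation of KrP sample 2 was 0.992 to KrP sample 3, 0.986 to KrP sample 1 and 0.989 to every array of the WT group. The 9 fibroblast markers measured had a mean log2 value of 11.48 to 12.06 in WT and 11.89 to 12.53 in KrP samples, and 0 of them passed limma's test (5 were higher at an unadjusted p under 0.05, and 3 rose with the replicate block; Pdgfra, which encodes the sorted antigen CD140a, ran from 13.13 to 13.54). Over all 22180 genes, 483 passed limma's test at a threshold of 0.05 on the Benjamini-Hochberg adjusted p. That is 2.18% of them, 1.15% higher and 1.03% lower in KrP. With the replicate number as a block, 8.35% passed, 5.33% higher and 3.02% lower. WT and KrP samples did not overlap for 20.3% of all genes, 11.4% with KrP higher and 8.93% with KrP lower.

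The 250 bases before the start sites of the members furthest apart between the groups are shown to set the promoters of Uts2 and Adcyap1r1, which were higher together, beside that of Ednrb, which was lower. They are RefSeq sequences of the mouse build GRCm38.p6, 5′ to 3′ on the gene's own strand. Uts2 lies at chr4:150996847-150997096 on the plus strand, Adcyap1r1 at chr6:55451728-55451977 on the plus strand and Ednrb at chr14:103843702-103843951 on the minus strand. Capitals mark matches, on either strand, to the motifs searched.
Uts2: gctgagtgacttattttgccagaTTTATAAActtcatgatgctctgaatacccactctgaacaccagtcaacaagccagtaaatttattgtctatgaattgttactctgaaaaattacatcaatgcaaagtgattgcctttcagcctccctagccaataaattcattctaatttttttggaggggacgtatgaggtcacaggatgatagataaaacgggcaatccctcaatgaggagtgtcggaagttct
Adcyap1r1: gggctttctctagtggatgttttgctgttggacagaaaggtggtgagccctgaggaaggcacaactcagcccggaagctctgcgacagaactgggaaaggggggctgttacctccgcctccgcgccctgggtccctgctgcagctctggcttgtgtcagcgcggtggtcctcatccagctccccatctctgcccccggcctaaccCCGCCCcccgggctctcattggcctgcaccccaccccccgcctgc
Ednrb: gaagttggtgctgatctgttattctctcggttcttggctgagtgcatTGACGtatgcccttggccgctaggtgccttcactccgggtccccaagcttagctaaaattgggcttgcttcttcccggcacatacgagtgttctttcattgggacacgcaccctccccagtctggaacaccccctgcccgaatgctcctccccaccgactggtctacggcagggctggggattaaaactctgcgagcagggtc

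The searched motifs were the cAMP response element TGACGTCA, its part TGACG, the AP-1 site TGANTCA, the TATA box TATAAA and the GC box GGGCGG. A whole element also counts as its part. The Uts2 window held the TATA letters on both strands, overlapping each other between 227 and 220 bases before the start, and the Adcyap1r1 window held 1 GC box. Ednrb held TGACG once, 203 to 199 bases before the start. The members higher in KrP shared no motif of the 5. Among all 32851 promoter windows of this length, 12.4% held TATAAA, 32.7% the GC box, 17.8% TGACG, 6.75% the AP-1 site and 1.55% the whole cAMP element. The Uts2 and Adcyap1r1 windows also differed in base composition, with 38.8% and 65.6% G or C beside a median of 52.4% over all windows. Of the other members, Vipr1 held TGACG once and the GC box 3 times, Vipr2 held 1 GC box and Npr3 held TGACG once. None of the 5 motifs lay in the windows of Uts2r, Edn1 or Ednra. Agtr1a had no promoter window in the sequences used and was not searched.

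Uts2 encodes urotensin II, a cyclic peptide among the most potent constrictors of arteries. Its log2 value was 8.54, 7.80 and 7.97 in WT samples 1 to 3 and 10.90, 10.14 and 10.69 in KrP samples 1 to 3. Every KrP sample lay above every WT sample, with 1.60 log2 units between the lowest KrP and the highest WT sample. The means of 8.10 ± 0.39 in WT and 10.58 ± 0.39 in KrP (SD, n = 3 each) differed 5.55-fold, a log2 difference of 2.47 ± 0.25 SE. This was the 7th highest difference of the 22180 genes. Uts2 was highest in sample 1 and lowest in sample 2 of both groups, and between samples of the same number it differed by 2.36, 2.34 and 2.72. In bulk samples such as these, a change in cell numbers and a change in RNA per cell cannot be told apart.

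The gene of its receptor overlapped between the groups. Uts2r lay at 7.28, 7.60 and 7.13 in WT and 7.09, 7.36 and 7.23 in KrP samples (log2 difference -0.11 ± 0.15 SE). Uts2b, the gene of the related peptide that shares this receptor, had means of 4.97 ± 0.15 and 4.90 ± 0.26 (SD, n = 3 each). It did not pass the test (limma adjusted p = 0.872). Both Uts2b means lay under a rough background level of 6.28, the 95th percentile over olfactory receptors.

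Adcyap1r1 encodes PAC1, the receptor that prefers PACAP over VIP. It had log2 values of 9.25, 9.57 and 9.13 in WT and 11.10, 11.68 and 11.27 in KrP samples. The groups again lay apart, by 1.53 log2 units between the nearest samples. The means of 9.32 ± 0.23 and 11.35 ± 0.30 (SD, n = 3 each) differed 4.09-fold, a log2 difference of 2.03 ± 0.18 SE that ranked 16th from the highest. Unlike Uts2, it was highest in sample 2 of both groups. Same-numbered samples differed by 1.85, 2.11 and 2.14. Leaving out any 1 sample kept the difference between 1.87 and 2.16 for Adcyap1r1 and between 2.31 and 2.69 for Uts2.

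The genes of the receptors that bind PACAP and VIP alike overlapped between the groups. Vipr1 (VPAC1) had 6.82, 6.88 and 6.76 in WT and 6.75, 7.02 and 6.64 in KrP samples. Vipr2 (VPAC2) had 6.50, 6.48 and 6.73 in WT and 6.50, 6.68 and 6.49 in KrP samples. Their log2 differences were -0.02 ± 0.13 SE and -0.01 ± 0.12 SE, and in both genes the KrP values spanned most of the WT range. Their group means, from 6.56 to 6.82, lay little above the background level of 6.28, near which differences are compressed. The ligand genes Adcyap1 (PACAP; log2 difference -0.13 ± 0.14 SE, limma adjusted p = 0.746) and Vip (-0.01 ± 0.10 SE, adjusted p = 0.987) did not pass either. In WT and KrP samples the means were 5.77 and 5.65 for Adcyap1 and 5.32 and 5.31 for Vip, under the background level of 6.28. An unchanged level cannot be read from these values. Dpp4, a membrane peptidase that trims PACAP and VIP among others, was at 6.99, 8.00 and 8.08 in WT and 5.37, 6.70 and 6.41 in KrP samples. Its difference of -1.53 ± 0.39 SE did not pass (limma adjusted p = 0.0993, or 0.00169 with the replicate block).

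**Figure D1:**
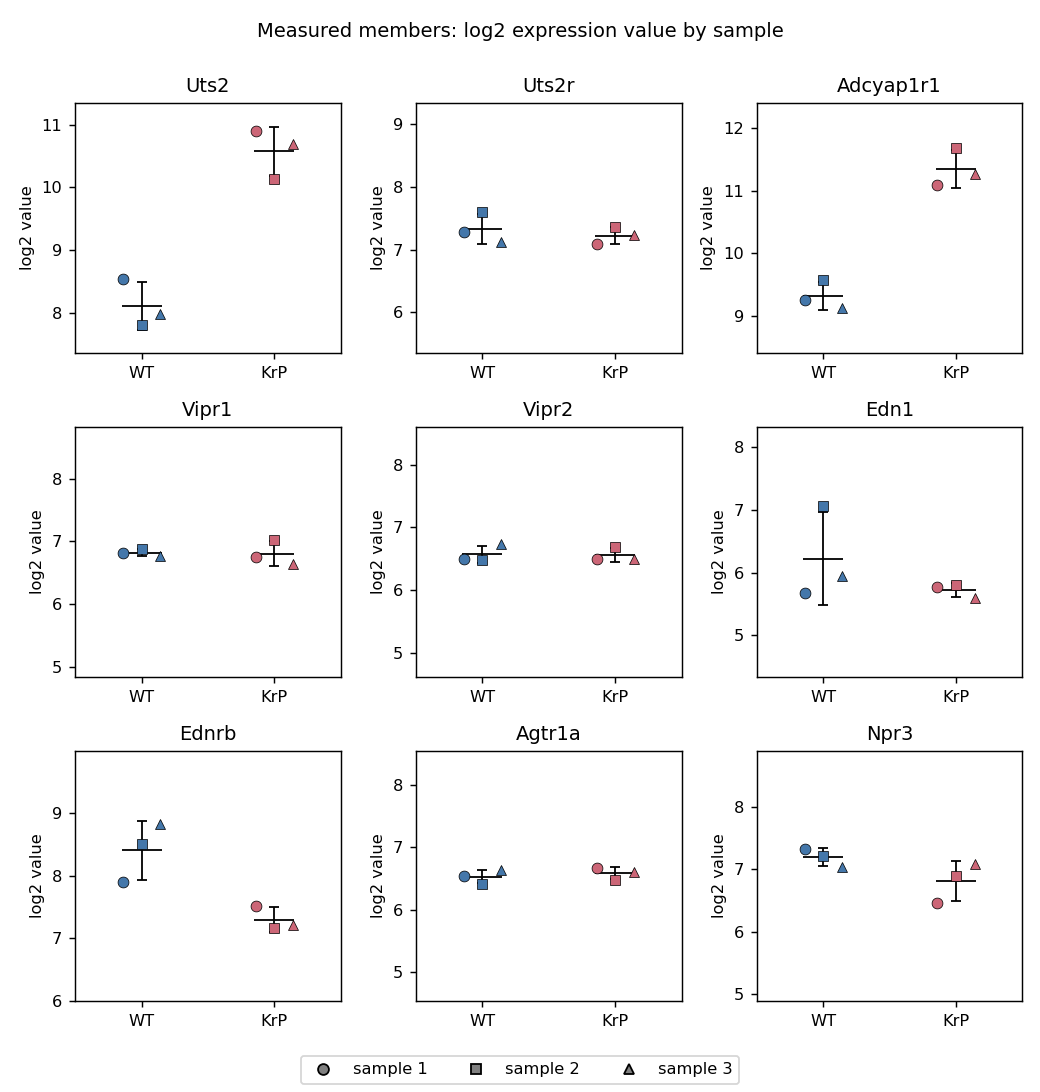
Log2 expression value (vertical axis, 4 log2 units in every panel) of the 9 measured members in the WT and KrP samples; points are samples, with the shape giving the sample number, and bars are the mean ± SD of 3. Uts2 and Adcyap1r1 lie higher and Ednrb lower in every KrP sample, and the other 6 genes overlap between the groups.

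In the endothelin system the only receptor gene measured was lower in every KrP sample than in any WT sample. Ednrb, the receptor that binds all endothelins alike and serves melanocytes and enteric neurons in development, had log2 values of 7.90, 8.50 and 8.83 in WT and 7.52, 7.16 and 7.22 in KrP samples. The lowest WT sample lay 0.38 above the highest KrP sample. The means were 8.41 ± 0.47 and 7.30 ± 0.19 (SD, n = 3 each), a 2.16-fold lower level in KrP (log2 difference -1.11 ± 0.23 SE). The difference was uneven over the sample numbers, at -0.38, -1.34 and -1.61. Markers of melanocytes, Schwann cells and endothelial cells, which can carry Ednrb in skin, are given beside it. The 8 melanocyte markers had a mean log2 value of 6.19 to 6.46 in WT and 6.31 to 6.34 in KrP samples, and the 6 Schwann cell markers measured had 6.56 to 6.81 and 6.38 to 6.56. In each list 0 genes passed limma's test, and at an unadjusted p under 0.05 the melanocyte list had 1 gene higher and 1 lower and the Schwann cell list 1 lower. In the melanocyte list the higher gene was Mitf (log2 difference 0.75 ± 0.23 SE; limma adjusted p = 0.156). The lower gene was Pmel (-0.31 ± 0.11 SE; limma adjusted p = 0.24), with means of 6.13 in WT and 5.83 in KrP samples. The melanocyte enzymes Tyr and Dct ran from 4.09 to 4.56 and from 5.46 to 6.19.

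The 10 endothelial markers had a mean log2 value of 6.60 to 6.89 in WT and 6.45 to 6.64 in KrP samples. None of these rose and 2 fell (3 with the block; 1 was higher and 3 lower at an unadjusted p under 0.05), Cldn5 (log2 difference -0.95 ± 0.13 SE; limma adjusted p = 0.0130) and Tek (-0.76 ± 0.14 SE; 0.0386). The third with the block was Kdr, a receptor of vascular endothelial growth factor, at 9.28, 8.19 and 8.67 in WT and 7.76, 6.84 and 7.31 in KrP samples. Its groups lay apart, with a log2 difference of -1.41 ± 0.31 SE (limma adjusted p = 0.0658, or 0.00158 with the block). The gene that was higher at an unadjusted p under 0.05 was Cdh5 (log2 difference 0.54 ± 0.23 SE; limma adjusted p = 0.304). Pecam1, which encodes the excluded antigen CD31, did not pass (adjusted p = 0.931). The call of Tek ended without any 1 sample (adjusted p up to 0.125) and that of Cldn5 without WT sample 3 (0.0629) or KrP sample 3 (0.0967). The part of these 3 cell types in the Ednrb difference was not tested.

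Edn1, the gene of endothelin 1, was at 5.67, 7.06 and 5.95 in WT and 5.77, 5.80 and 5.60 in KrP samples. WT sample 2 stood 1.25 above the mean of the other WT samples, and without it the log2 difference moved from -0.50 ± 0.32 SE to -0.09. The keratinocyte markers were also highest there: their mean over 9 genes was 7.11 in WT sample 2, against 6.32 and 6.22 in WT samples 1 and 3 and 6.06 to 6.41 in KrP samples. Of these 9 markers, 8 were higher in WT sample 2 than in both other WT samples, among them Krt14 (7.59 against 6.78 and 6.52) and Epcam (6.33 against 5.07 and 4.94). Other marker means were also highest of the 6 arrays in WT sample 2. Immune cell markers were at 6.58 there and 6.16 to 6.34 elsewhere, melanocyte markers at 6.46 and 6.19 to 6.34, Schwann cell markers at 6.81 and 6.38 to 6.56, and endothelial markers at 6.89 and 6.45 to 6.78. Over all genes, 26.1% had their highest value of the 6 arrays in WT sample 2. The part of RNA from these cells in the Edn1 value was not tested. Edn2 and Edn3, the other endothelin genes, had log2 differences of -0.03 ± 0.11 SE and -0.07 ± 0.12 SE (limma adjusted p = 0.928 and 0.847).

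**Figure D2:**
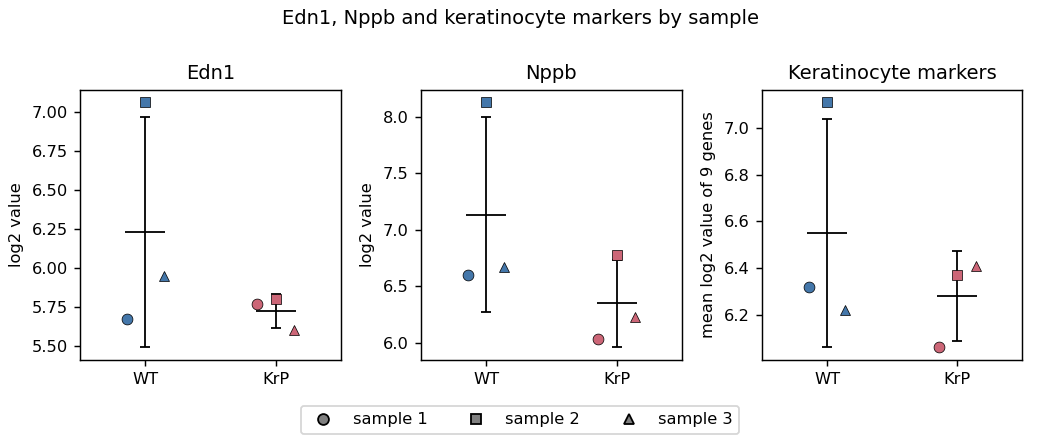
Log2 value of Edn1 and Nppb and the mean log2 value of 9 keratinocyte markers (vertical axes, each with its own range and not starting at 0) by group; points are samples, with the shape giving the sample number, and bars are the mean ± SD of 3. WT sample 2 is the highest of all 6 in each panel, at 7.06 for Edn1, 8.13 for Nppb and 7.11 for the markers.

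Both of the genes that passed in the endothelin list encode peptidases and fell in KrP fibroblasts. Mme (neprilysin), which breaks down endothelins and natriuretic peptides, was at 9.33, 9.77 and 10.83 in WT and 7.91, 7.76 and 7.64 in KrP samples. It was 4.62-fold lower (log2 difference -2.21 ± 0.34 SE; limma adjusted p = 0.0180), and the KrP samples lay closer together (SD 0.14) than the WT samples (SD 0.77). Ece1, which cuts the endothelin precursor to its active form, was at 11.39, 11.11 and 11.26 in WT and 10.74, 10.70 and 10.58 in KrP samples, 1.49-fold lower (log2 difference -0.58 ± 0.11 SE; limma adjusted p = 0.0386). Its relative Ece2 did not pass (log2 difference 0.09 ± 0.19 SE; limma adjusted p = 0.878). The call of Mme ended without WT sample 2 (adjusted p = 0.0519) or KrP sample 3 (0.116). That of Ece1 ended without any 1 sample other than KrP sample 2, with an adjusted p of up to 0.214, and with arrays centred on their medians (0.0509).

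In the angiotensin system the receptor gene among the members overlapped between the groups. Agtr1a, the main receptor of angiotensin II in rodents, had 6.54, 6.42 and 6.63 in WT and 6.66, 6.48 and 6.61 in KrP samples (log2 difference 0.05 ± 0.11 SE). Its close copy Agtr1b, which can share probe signal with it, had a log2 difference of -0.24 ± 0.13 SE (limma adjusted p = 0.401), and Agtr2, the opposing receptor, one of 0.07 ± 0.17 SE (adjusted p = 0.889). Both Agtr1b and Agtr2 had group means under the background level of 6.28, and those of Agtr1a, 6.53 and 6.58, lay little above it. Of the genes that make the ligand, Ace and Agt were higher in each KrP sample without passing. Ace, the converting enzyme, was at 7.69, 8.31 and 8.02 in WT and 8.82, 9.97 and 8.98 in KrP samples, a log2 difference of 1.25 ± 0.30 SE (limma adjusted p = 0.0869, or 0.00653 with the replicate block). Agt, the precursor, had means of 6.97 ± 0.16 and 7.52 ± 0.17 (SD, n = 3 each; limma adjusted p = 0.0959, or 0.0628 with the block). Cma1, a mast cell chymase that can also form angiotensin II, overlapped at 4.11, 4.77 and 4.45 in WT and 4.23, 4.20 and 4.46 in KrP samples (log2 difference -0.15 ± 0.17 SE; limma adjusted p = 0.755). Agtrap, which binds the angiotensin receptor and dampens it, had 7.15 ± 0.25 and 7.83 ± 0.12 (SD, n = 3 each; limma adjusted p = 0.0707, or 0.0144 with the block).

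Npr3 encodes the natriuretic peptide receptor without a cyclase, which clears the peptides from the tissue. Its log2 values of 7.32, 7.21 and 7.04 in WT and 6.46, 6.89 and 7.08 in KrP samples overlapped, since KrP sample 3 lay just above WT sample 3 (log2 difference -0.38 ± 0.17 SE). The genes of the cyclase receptors had positive differences without passing. Npr1, the receptor of Nppa and Nppb, was at 7.05, 6.98 and 6.85 in WT and 7.53, 7.34 and 7.45 in KrP samples (log2 difference 0.48 ± 0.12 SE; limma adjusted p = 0.0857, or 0.0403 with the block). With its 2 single-gene probe sets averaged, the Npr1 difference was 0.27 ± 0.10 SE (limma adjusted p = 0.227). Npr2, the receptor of Nppc, had a log2 difference of 0.45 ± 0.23 SE (adjusted p = 0.391). Among the ligands, Nppa and Nppc had log2 differences of -0.14 ± 0.18 SE and 0.27 ± 0.11 SE (limma adjusted p = 0.774 and 0.264). Nppb, at 6.60, 8.13 and 6.67 in WT and 6.03, 6.78 and 6.23 in KrP samples, stood out in WT sample 2 as Edn1 did. Its log2 difference was -0.79 ± 0.40 SE, or -0.29 without that sample (limma adjusted p = 0.385 with all samples, 0.0489 with the block and 0.639 without that sample).

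**Figure D3:**
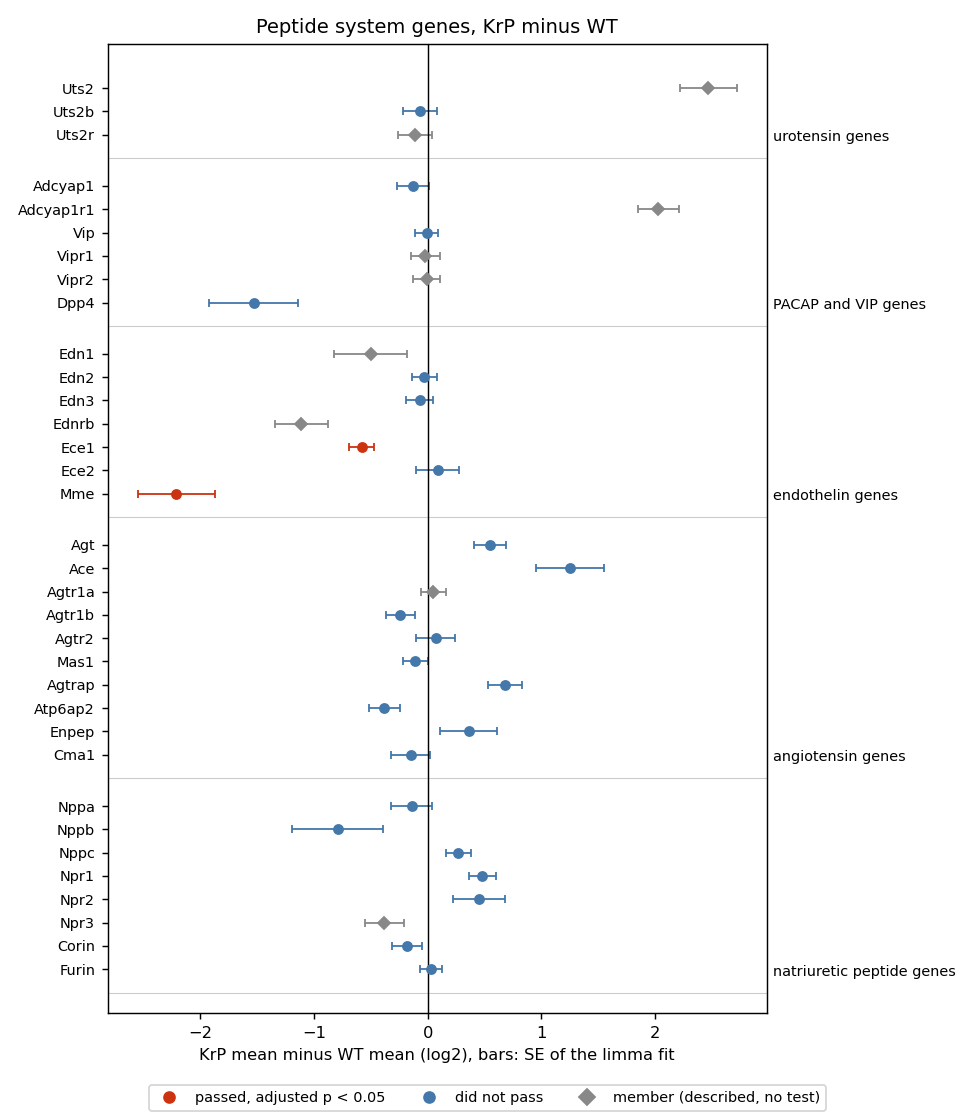
Difference between the KrP and WT means (log2, horizontal axis) for each measured gene of the 5 peptide systems, with bars for the SE of the limma fit; grey diamonds are the members, red points genes that passed and blue points genes that did not. Uts2 (2.47) and Adcyap1r1 (2.03) lie furthest to the right, Mme (-2.21) and Dpp4 (-1.53) furthest to the left.

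Counted together, 2 of the 9 measured members passed as higher and 0 as lower, where 2.18% of all genes passed. With the replicate block Ednrb was added as lower, where 8.35% of all genes passed. The groups did not overlap for these 3 members, where that held for 20.3% of all genes. The rule used this contrast, so nothing is read from these counts. Among the other genes of the 5 systems, 25 of 28 were measured. Of these 0 rose, 2 fell and 23 did not pass limma's test (5 were higher and 4 lower at an unadjusted p under 0.05), with a median log2 difference of -0.07 beside 0.01 over all genes. With the block 3 rose and 4 fell. Without KrP sample 2, 5 of the 25 passed, where 5.03% of all genes did, and without WT sample 2 or KrP sample 3 none of the 25 passed (8 had an unadjusted p under 0.05 in either fit), where 1.15% and 0.383% of all genes did.

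Of the 47 measured signalling genes that act downstream of these receptors, 2 passed as higher and 3 as lower, where 1.15% and 1.03% of all genes did. With the block 9 rose and 4 fell, where 5.33% and 3.02% of all genes did. Of the 19 Gs and cyclic AMP effectors measured, 1 rose, 3 fell and 15 did not pass (4 rose and 3 fell with the block), with a median log2 difference of 0.01. The 3 that fell were adenylyl cyclases, the enzymes that make cyclic AMP. Adcy7 was at 8.39, 8.32 and 8.36 in WT and 7.67, 7.64 and 7.43 in KrP samples, 1.71-fold lower (limma adjusted p = 0.0188). Adcy2 fell 2.15-fold, from 8.10 ± 0.40 to 7.00 ± 0.16 (SD, n = 3 each; limma adjusted p = 0.0374), and Adcy4 fell 1.68-fold (0.0451). Other cyclases did not pass, among them Adcy6 with a log2 difference of 0.67 ± 0.24 SE (limma adjusted p = 0.212, or 0.0363 with the block).

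The gene that rose was Prkar1b, a regulatory subunit of the kinase that cyclic AMP activates. It was at 7.68, 7.43 and 7.54 in WT and 8.93, 8.37 and 8.65 in KrP samples, 2.14-fold higher (limma adjusted p = 0.0169). Gnas, the Gs protein through which PAC1 acts, had a log2 difference of 0.09 ± 0.11 SE (limma adjusted p = 0.769). The Gq and calcium list had 19 measured genes, of which 1 rose and none fell (with the block, 4 rose and 1 fell), at a median log2 difference of 0.06. The gene that rose was Rgs4, which shortens Gq signals, at 7.06, 6.46 and 6.53 in KrP against 5.85 to 5.90 in WT samples (log2 difference 0.81 ± 0.16 SE; limma adjusted p = 0.0492). All WT values of Rgs4 were below a rough background level of 6.28 (the 95th percentile over olfactory receptors), so no fold is given for it. The Gq genes Gnaq and Gna11 did not pass (adjusted p = 0.453 and 0.271). Of the 9 cyclic GMP effectors 0 passed limma's test (2 were higher at an unadjusted p under 0.05, and 1 rose with the block; median log2 difference 0.07).

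The 5 effector calls changed with the samples included. Without KrP sample 3 or WT sample 3, 0 of the 47 effector genes measured passed limma's test (14 and 16 had an unadjusted p under 0.05), and without WT sample 1 only 1 did, where all genes passed at 0.383%, 0.455% and 1.04%. Without KrP sample 1, 2 passed, where 1.45% of all genes did. Prkar1b lost its call without WT sample 2, WT sample 3 or KrP sample 3 (limma adjusted p up to 0.115). Adcy7 passed only without KrP sample 1 or 2 (otherwise up to 0.131) and Adcy2 only without WT sample 2 or KrP sample 2 (up to 0.183). Adcy4 passed only without WT sample 2 (up to 0.229) and Rgs4 only without KrP sample 2 (up to 0.196). Centring the arrays on their medians also ended the calls of Adcy4 (0.0578) and Rgs4 (0.0557), and that of Rgs4 ended with quantile normalisation (0.0532) and with no variance trend (0.0546).

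**Figure D4:**
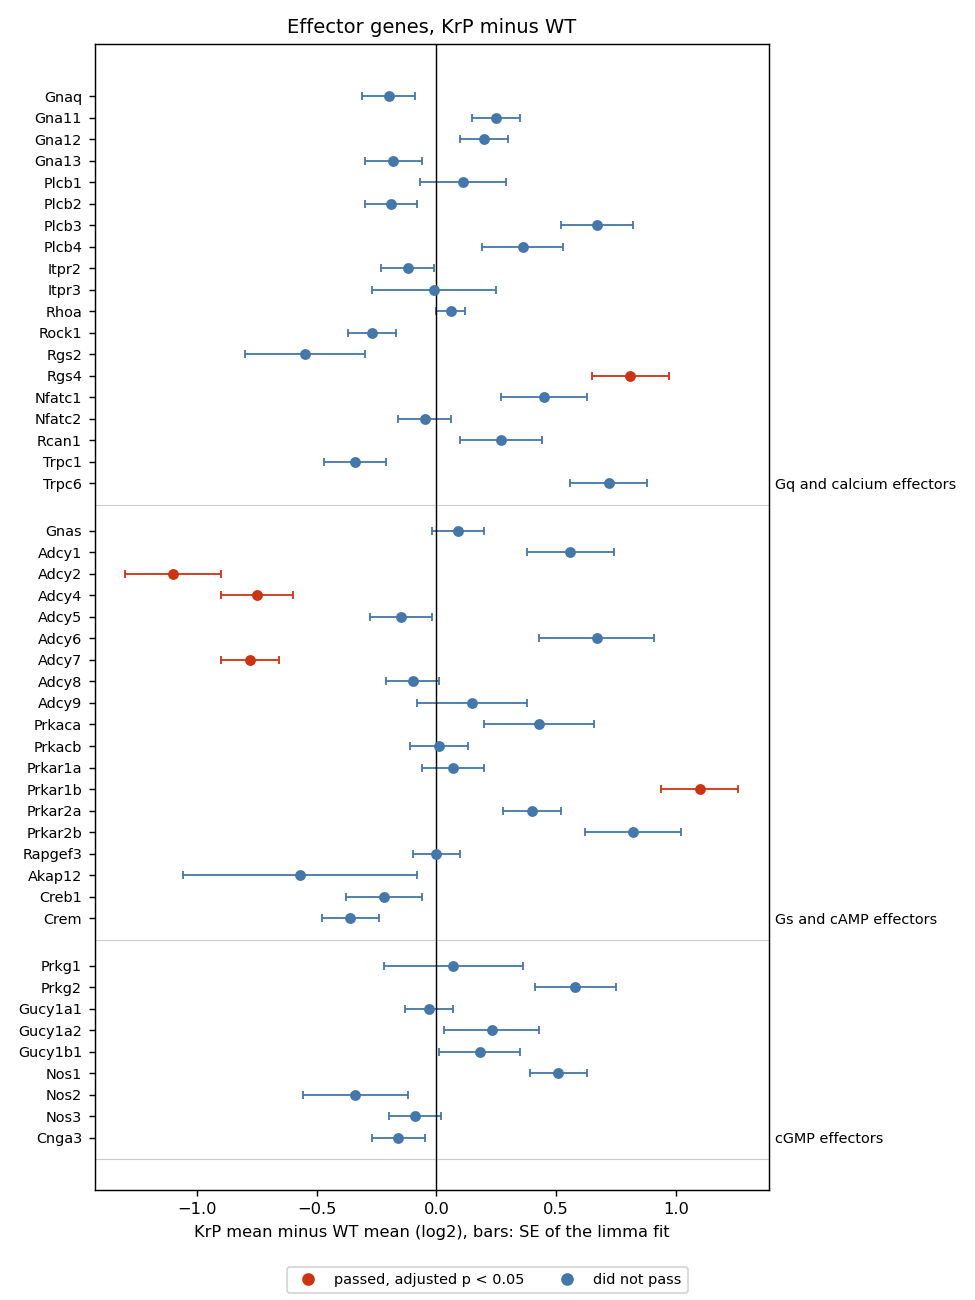
Difference between the KrP and WT means (log2, horizontal axis) for each measured gene of the 3 effector lists, with bars for the SE of the limma fit; red points passed and blue points did not. The adenylyl cyclases Adcy2, Adcy4 and Adcy7 lie to the left of 0 and Prkar1b and Rgs4 to the right, and the cyclic GMP list has no gene that passed.

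Markers of further cell types are given beside these results, since the muscle cells of vessels are a main target of the peptides. The 11 pericyte and smooth muscle markers had 7.24 to 7.63 in WT and 7.34 to 7.77 in KrP samples, with 0 higher and 1 lower (1 and 1 with the block). The gene that fell was Cspg4 (log2 difference -1.10 ± 0.19 SE; limma adjusted p = 0.0298). The gene that rose with the block was Acta2, at 9.64, 10.17 and 10.38 in WT and 10.69, 11.08 and 12.36 in KrP samples. Its log2 difference was 1.31 ± 0.40 SE (limma adjusted p = 0.154, or 0.0138 with the block). The pericyte marker Rgs5 ran from 4.99 to 5.42. The call of Cspg4 ended without any WT sample or KrP sample 3 (adjusted p up to 0.148). Of 9 immune cell markers 1 rose, Csf1r (log2 difference 0.73 ± 0.13 SE; limma adjusted p = 0.0347), while Ptprc, which encodes the excluded antigen CD45, ran from 4.44 to 5.15. The call of Csf1r ended without WT sample 1, WT sample 3, KrP sample 1 or KrP sample 3 (adjusted p up to 0.196). None of 7 adipocyte markers passed, and 0 had an unadjusted p under 0.05. The part of these cells in the differences above was not tested.

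The genes whose values followed Uts2 most closely over the 6 samples were Ptprj (Pearson r = 0.998), Cacnb1 (0.996), Bcl6 (0.994), Asphd2 (0.994) and Socs2 (0.993). Those closest to Adcyap1r1 were Ttc9 (r = 0.993), Cacng7 (0.993), Itga4 (0.992), Plpp2 (0.990) and Fam189a2 (0.988). The lists had no gene in common. All of these correlations rest on the same 6 arrays and take in the difference between the groups, and they are given as a description. Uts2 and Adcyap1r1 themselves correlated by 0.908.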

How the data were processed

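Biotin-labelled RNA of 6 sorted fibroblast samples was measured on 1 array each. The deposited table holds log2 values made by the authors, and the submitters' processing notes name RMA and Partek without versions or roles. A genome build and probe filters were not given in the sources used here. Of 34390 probe sets, 23521 had 1 gene symbol, 1814 several and 9055 none, and 23328 of the first were matched by gene ID to RefSeq (GRCm38.p6). The probe set with the highest mean was used per gene.

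Differences (KrP minus WT, 3 against 3) came from limma 3.58.1 in R 4.3.3 (trend on mean level, no block or filter), with Benjamini-Hochberg adjustment over 22180 genes and a threshold of 0.05. On simulated data the fit recovered 63% of genes changed by 1 log2 unit and 94% of those changed by 2, with 4 false calls. The simulated noise was independent between genes and alike in all arrays, so recovery in the real arrays can differ. Arrays carry no read depth, and their number limits the precision. As a rough guide to background, 1105 olfactory receptor genes had a 95th percentile of 6.28. Of the 9 members, Edn1 had both group means under it, as Rgs4 had its WT mean, and differences near it are compressed. Among the other genes of the peptide systems, 7 had both group means at or under it, including Uts2b, Adcyap1, Vip, Agtr1b, Agtr2 and Cma1.

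Members and lists were chosen with earlier results of these data known. Named genes are the members, the ligands, receptors and main enzymes of their systems, further list genes that passed, markers, and the 5 genes most like Uts2 and Adcyap1r1 among those spanning at least 1 log2 unit (predicted genes and small RNAs left out). Ece2, Gnas, Gnaq, Gna11, Adcy6, Dpp4, Agtrap, Cma1 and Bdkrb2 fall outside that rule and were named after their values were seen.

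Same-numbered samples deviated from their group means with correlations of 0.414, 0.350 and 0.120, and other pairs with -0.385 to 0.067. Deviations cancel within a group, so these values are not independent and cannot settle whether samples are paired. No label states a pairing, so the main fit had no block and the block is an alternative. The replicate block is given where it changes a call. Alternatives also changed the variance prior, array weights, low-value filter, scaling and probe set rule, and left out each sample. A planned comparison of protein sequences was not run. Plots used matplotlib 3.10.9 (Python 3.11.15).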

Additional observations from a re-analysis of the deposited data

How the results depend on the processing

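The 9 members kept their estimates within 1 SD of the replicates in 129 of 131 values over the alternatives run. The exceptions were Vipr2 (-0.16) and Npr3 (-0.07) with array weights. The block, the variance prior, the low-value filters and the probe set rule could not move a member's estimate. Leaving out 1 of 3 samples could move it, but never by as much as 1 SD. Edn1 therefore counted as kept without WT sample 2, where its log2 difference went from -0.50 to -0.09. The share of all these values was fixed in advance. Only array weights and the rescaled arrays could have moved an estimate past 1 SD. Called genes of the peptide and effector lists kept their direction in every alternative run, and the block changed no other call of a gene named in the text than those given there. Counts of calls moved far more. With the replicate block, 1851 genes passed (1182 higher, 669 lower), 7 of the other peptide system genes and 13 of the effectors. With array weights these were 6410 (3759 higher, 2651 lower), 12 and 23, and the cause was not tested. Centring arrays on their medians left 1 peptide system gene, Mme, and 3 effectors. Leaving out 1 sample gave 85 to 1116 genes, 45 to 682 higher and 40 to 434 lower, with 0 to 5 peptide system genes and 0 to 7 effectors; the lowest counts over all genes came without KrP sample 3 and the highest without KrP sample 2. A further 33 genes were followed: the main ligands, receptors and enzymes, and each other list gene that passed with or without the block. Some of them are not named here, and some named genes and all markers are not among them. Of their 481 values under alternatives, 405 stayed on their side of the threshold, 37 lost the call and 39 gained it. With 3 arrays per group, small differences near background could not be resolved.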

Other observations

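Other vasoactive peptide genes were looked at beside the 5 systems. Of 19 measured, 1 rose and 0 fell (2 rose with the replicate block), with a median log2 difference of 0.20. Over all genes 2.18% passed, or 8.35% with the block. The gene that rose was Nmu, which encodes neuromedin U, a peptide of smooth muscle contraction and feeding control, at 6.66, 7.01 and 6.66 in WT and 7.87, 7.52 and 8.11 in KrP samples. It was 2.08-fold higher (limma adjusted p = 0.0272), and the call ended without WT sample 1 (0.0874), WT sample 3 (0.142), KrP sample 1 (0.0634) or KrP sample 3 (0.129). The bradykinin receptor Bdkrb2 had a WT mean of 7.49 ± 0.05 and a KrP mean of 8.02 ± 0.08 (SD, n = 3 each; limma adjusted p = 0.0546, or 0.0298 with the block). The groups did not overlap for 9 genes higher and 1 lower in KrP, where 20.3% of all genes did not overlap.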
